A study of Mus musculus with 12 samples.

Results

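The genes described here encode 4 protein kinases and 3 F-box proteins that act on proteins of the circadian clock. Members were the 7 genes Csnk1d, Csnk1e, Csnk2a1, Gsk3b, Fbxl21, Btrc and Fbxw11, taken from 24089 genes tested. They were found by the gene name that the array's design gives to each non-control probe, which selected 18 of 55681 probes. The selection used no measured value. All 18 probes passed the filter on dim probes, and 17 of them were well above background on every array.

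RNA, labelled as hippocampus, came from 12 adult male wild-type mice kept in constant darkness, 1 mouse per 1-colour Agilent array. The labels name no strain and no treatment other than darkness. Mice were taken at 4 circadian times (CT), 3 mice each: CT0, the start of the subjective day, after 36 h of darkness; CT6 after 42 h; CT12, the start of the subjective night, after 48 h; and CT18 after 30 h. Mice are named by the numbers in their labels, 1 to 3 at CT0, 5 to 7 at CT6, 10 to 12 at CT12 and 14 to 16 at CT18. Circadian time and hours in darkness cannot be told apart in this design.

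As background, the mammalian clock is a transcription loop whose repressors, the PER and CRY proteins, are marked by kinases and then destroyed by the proteasome. Casein kinase 1 delta and epsilon (Csnk1d, Csnk1e) phosphorylate PER proteins, and the F-box proteins beta-TrCP (Btrc) and its paralog (Fbxw11) bind the phosphorylated PER and present it to an SCF ubiquitin ligase. FBXL21 is an F-box protein that ubiquitylates CRY, GSK3 beta (Gsk3b) phosphorylates REV-ERB alpha, PER and CRY proteins, and Csnk2a1 encodes a catalytic subunit of casein kinase 2, which phosphorylates PER2 and BMAL1. The comparison asked whether the RNAs of these regulators differ among circadian times.

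The probes that bear most on how the results read are those of Btrc, whose probes went opposite ways, of Fbxw11, whose probes moved together, and of Csnk2a1, where 1 probe ranged more widely than the other three. In each gene the brightest probe stands for the gene. Probe positions are on mm9, the build of the file headers, and all the probes printed here lie on the plus strand. No annotation of that build was used, so exons and untranslated regions are not named. For the probes of Btrc the first 30 bases are shown. A_55_P2004026 lies at chr19:45604418-45604477 and A_66_P102607 at chr19:45607701-45607760, which is 3283 bases farther along.
A_55_P2004026: ataaaaagcattgtgcttcatcttaaatca
A_66_P102607: atgttgtagtggtgtgtagtcaatgtacca
For Fbxw11 the last 30 bases are shown, with the hexamer AATAAA, which is the usual signal for cleavage and polyadenylation, in capitals where it occurs. A_55_P1961894 lies at chr11:32646490-32646549 and A_51_P141860 at chr11:32646601-32646660, 111 bases apart from start to start.
A_55_P1961894: tggtaattatgtttgccaattatctgtttg
A_51_P141860: cttAATAAAaacaaaagtttgacctttgtc
Csnk2a1 has 4 probes. A_51_P397768 spans 1423 bases of the genome at chr2:152098418-152099840 although it is 60 bases long, so it crosses an intron. Its last 9 bases, in capitals, are also the first 9 of A_55_P1971828 at chr2:152099832-152099891.
A_51_P397768: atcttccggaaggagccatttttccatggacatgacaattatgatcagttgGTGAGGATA
A_55_P1971828: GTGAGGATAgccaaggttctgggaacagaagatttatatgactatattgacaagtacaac
The other two Csnk2a1 probes lie downstream, A_55_P2022845 at chr2:152106007-152106066 and A_55_P2022840 at chr2:152107498-152107557. Their last 30 bases are shown, with AATAAA in capitals.
A_55_P2022845: aattctttggtgtaAATAAAcgtttggttt
A_55_P2022840: aagttgtgccatgaaggtctttaatttttt

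On each array, 59.3% to 77.1% of the 59305 non-control spots were well above background. CT0 mouse 3 had the highest share, 77.1%, against 59.3% to 67.1% on the other 11 arrays. Precision depends on the number of arrays and on the spread between mice. In the library labelled CT12 mouse 11, values across genes (no independent replicates) correlated with those of the other libraries at 0.945 to 0.965, against 0.984 to 0.995 among the other 11. Its excitatory neuron markers (7 of 7 genes measured) lay at a median of -4.19 around their own means, against -0.22 to 0.60 in the other libraries. Its cerebellum markers (8 of 10 measured) lay at 4.60, against -0.73 to -0.16 in the other libraries. The hippocampal subfield markers (7 of 7 measured) lay at -1.61 in it, against -0.32 to 0.39 in the other libraries. By these lists the library stood apart from the other hippocampal libraries, so results are given with and without it. The choroid plexus list (8 of 10 measured) had medians of 4.03 in CT0 mouse 1, 3.06 in CT6 mouse 7, 3.65 in CT12 mouse 10, 2.42 in CT12 mouse 11 and 2.73 in CT18 mouse 14, and of -2.36 to -1.96 in the other 7 libraries. The log2 of its summed level ran from 0.89 to 8.47 at CT0, 0.72 to 7.71 at CT6, 1.21 to 8.0 at CT12 and 0.90 to 7.56 at CT18, so every time held libraries with high and with low levels of these markers. Every slide, of 3 in all, held an array of each time at a fixed position, so position and time cannot be told apart.

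None of the 7 genes was called as different among the times. The limma moderated F test on the 4 means, with Benjamini-Hochberg adjustment over 24089 genes, called 0 of 7 members, against 0.166% of all genes, and 0 of 7 members had an unadjusted p under 0.05, against 10.6% of all genes. The test of a 24-hour cosine called 0 of 7, against 0.0706% of all genes. Without CT12 mouse 11 both tests again called 0 of 7, against 0.245% and 0.282% of all genes. Of the 18 probes tested singly, the F test called 0, against 0.0707% of 33965 probes, and the cosine test 0, against 0.0442%. Unadjusted p values under 0.05 were reached by 2 of the 18 probes in the F test and 1 in the cosine test, against 3609 and 3337 of the 33965. Such low background shares mean that a count of 0 does not set these genes apart from most others, and the sizes of the differences and their intervals are given for that reason. All values below are log2 intensity minus the log2 of the array's 75th percentile, listed in the order of the mouse numbers. Fewer cells of a type and less RNA per cell cannot be told apart in such bulk samples.

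**Figure D1:**
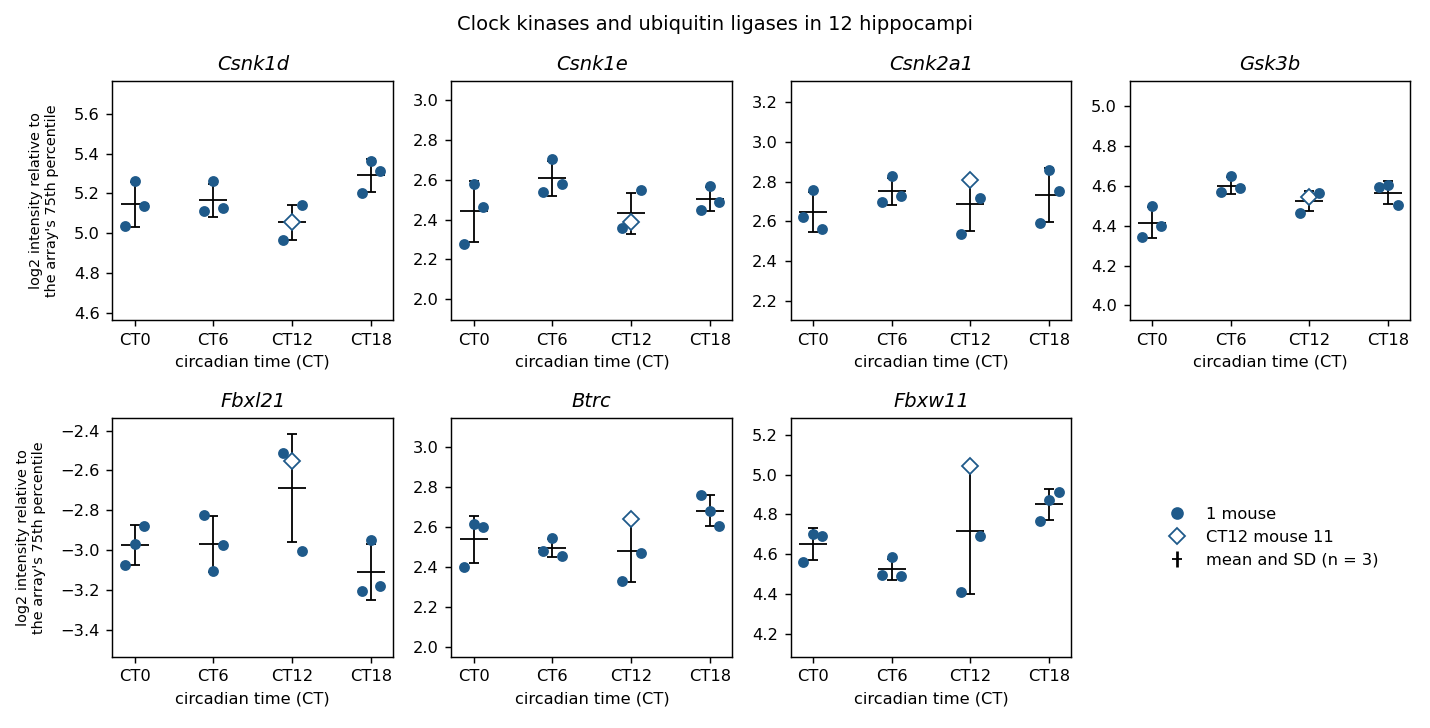
Log2 intensity with the 75th percentile of the array as 0 (vertical axis) for the probe that stands for each gene, by circadian time (horizontal axis), 1 point per mouse with the mean and SD of 3 mice. The open diamond is CT12 mouse 11, which is the highest of the 12 libraries for Fbxw11 (5.04) and lies within the range of the others for the other genes; each vertical axis spans the same number of log2 units around its own centre.

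Among the kinases, Csnk1d, which encodes casein kinase 1 delta, had 5.04, 5.26 and 5.13 at CT0, 5.11, 5.26 and 5.12 at CT6, 4.97, 5.06 and 5.14 at CT12, and 5.20, 5.36 and 5.31 at CT18. The 3 CT18 mice lay above the 3 CT12 mice, and every other pair of times overlapped. Its means were 5.14 ± 0.11 at CT0, 5.16 ± 0.08 at CT6, 5.06 ± 0.09 at CT12 and 5.29 ± 0.08 at CT18 (SD, n = 3 each). The lowest and highest means differed by 0.24 log2 units, or 1.18-fold, and the F test gave an adjusted p of 0.62 (limma), or 0.678 without CT12 mouse 11. The difference CT18 minus CT12 was 0.24 (95% interval 0.02 to 0.45, adjusted p = 0.265, limma). Its other probe, A_52_P477369, had time means of -0.18, 0.03, -0.03 and 0.01 from CT0 to CT18, with an adjusted F test p of 0.801 (limma).

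Csnk1e, which encodes casein kinase 1 epsilon, had 2.28, 2.58 and 2.46 at CT0, 2.54, 2.71 and 2.58 at CT6, 2.36, 2.39 and 2.55 at CT12, and 2.45, 2.57 and 2.49 at CT18. All times overlapped with their neighbours, and CT0 mouse 1 was the lowest library. The means ranged over 0.18 log2 units (1.13-fold), from 2.43 ± 0.10 at CT12 to 2.61 ± 0.09 at CT6 (SD, n = 3 each; F test, adjusted p = 0.744, limma). A_55_P2122546 had a range of the same size, 0.18, but another order of times, with its lowest mean at CT0 (1.80) and its highest at CT18 (1.97). The dimmest of its 3 probes, A_66_P117366, which the array design ties to another transcript record, ranged over 0.47 and had 1 high library, CT0 mouse 3 at -2.46, against -3.67 to -3.00 in the other 11. The array of CT0 mouse 3 also had the highest share of spots well above background (77.1%), and its part here was not tested.

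Csnk2a1, the casein kinase 2 subunit, had the smallest range of means of the 7 genes. It had 2.62, 2.76 and 2.56 at CT0, 2.70, 2.83 and 2.73 at CT6, 2.54, 2.81 and 2.72 at CT12, and 2.59, 2.86 and 2.75 at CT18. No pair of times was separated, and the means lay within 0.10 log2 units (1.07-fold; F test, adjusted p = 0.963, limma). Of its 3 other probes, the pair that shares 9 bases had ranges of 0.16 (A_51_P397768) and 0.14 (A_55_P1971828). A_55_P2022845, the one with AATAAA, had a range of 0.38: its values were 2.58, 2.71 and 2.64 at CT18 and 2.15, 2.13 and 2.49 at CT12. Here all CT18 mice lay above all CT12 mice, a separation whose share over all probes was not counted. For this probe CT18 minus CT12 was 0.38 (95% interval 0.13 to 0.64, adjusted p = 0.172, limma). Its F test p was 0.0465 before and 0.465 after adjustment (limma), and 0.101 before adjustment without CT12 mouse 11.

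Gsk3b, the glycogen synthase kinase, varied least between mice of one time, with a residual SD of 0.06. It had 4.34, 4.50 and 4.40 at CT0, 4.57, 4.65 and 4.59 at CT6, 4.46, 4.54 and 4.56 at CT12, and 4.59, 4.61 and 4.50 at CT18. The 3 CT0 mice lay below the 3 CT6 mice and, narrowly, below the 3 CT18 mice, and they overlapped with the CT12 mice. The CT6 mice also lay, narrowly, above the CT12 mice. The share of all genes without overlap was not counted for these pairs, and it was 12.9% to 22.8% for the pairs that were counted. The difference CT6 minus CT0 was 0.19 (95% interval 0.01 to 0.37). For this pair limma called 0 of 7 members and 0% of all genes (0 of 24089, 589 at an unadjusted p under 0.05). The F test gave an adjusted p of 0.624, and the 2 further probes of Gsk3b each ranged over 0.14 (adjusted p = 0.803 and 0.912, limma).

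Fbxl21, the F-box protein of CRY, had the widest range of means of the members, and the values of its 2 probes lie far below the array's 75th percentile. A_51_P456838, which stands for the gene, had -3.08, -2.97 and -2.88 at CT0, -2.83, -3.11 and -2.97 at CT6, -2.51, -2.56 and -3.00 at CT12, and -3.21, -2.95 and -3.18 at CT18. CT12 mice 10 and 11 were the highest libraries, and CT12 mouse 12 lay among the mice of the other times. The means ran from -3.11 ± 0.14 at CT18 to -2.69 ± 0.27 at CT12 (SD, n = 3 each), a range of 0.42 or 1.34-fold (F test, adjusted p = 0.531, limma). CT18 minus CT12 was -0.42 (95% interval -0.74 to -0.10, adjusted p = 0.213, limma), the lowest adjusted p of any pair of times among the 7 genes.

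The difference CT12 minus CT0 for Fbxl21 was 0.28 (95% interval -0.04 to 0.61), with slide values of 0.41, -0.13 and 0.57. It depended on the processing, with 0.48 in the deposited value table, 0.48 with quantile normalization and 0.17 with normexp background correction. It also depended on single CT12 libraries, at 0.20 without CT12 mouse 10, 0.22 without CT12 mouse 11 and 0.44 without CT12 mouse 12. None of these passed: the adjusted p was 0.457 with all libraries, and from 0.115 (without CT12 mouse 12) to 0.844 (only the 6 arrays compared) over all the alternatives (limma). Its second probe, A_52_P41239, was not well above background in CT0 mouse 1, had -3.89, -3.12 and -4.27 at CT12 against -4.92, -4.56 and -3.09 at CT0, and gave 0.43 with an interval of -0.55 to 1.41. CT0 mouse 3, whose array had the highest share of spots well above background (77.1%), held the highest CT0 value of both probes, -2.88 and -3.09. The part of that array was not tested. The 2 libraries with the highest Fbxl21 are also those with the highest thalamus list (6 of 7 genes measured; medians of 1.07 in CT12 mice 10 and 11 each, and -0.45 to -0.01 in the other 10). The log2 of the summed level of that list ran from 2.83 to 3.01 at CT0, 2.73 to 3.09 at CT6, 3.31 to 4.91 at CT12 and 2.53 to 2.97 at CT18. Its part in the result was not tested.

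Btrc, which encodes the PER-binding F-box protein, was read by probes that went opposite ways. A_66_P102607, which stands for the gene, had 2.40, 2.62 and 2.60 at CT0, 2.48, 2.55 and 2.46 at CT6, 2.33, 2.64 and 2.47 at CT12, and 2.76, 2.68 and 2.60 at CT18. The CT18 mice lay above the CT6 mice, and CT18 minus CT6 was 0.19 (95% interval -0.05 to 0.42, adjusted p = 0.748, limma). A_55_P2004026 had -0.46, -0.06 and 0.16 at CT0, 0.14, 0.44 and 0.21 at CT6, -0.12, 0.30 and 0.25 at CT12, and -0.61, -0.35 and -0.65 at CT18. Here the CT18 mice lay below the CT6 and CT12 mice, with only CT0 mouse 1 reaching their level from another time. The share of all probes without overlap was not counted.

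For A_55_P2004026, CT18 minus CT6 was -0.80 (95% interval -1.20 to -0.40), and it was -0.79, -0.85 and -0.75 within the 3 slides. Adjusted over 33965 probes, of which 0.0736% were called for this pair, p was 0.161 (limma). The adjusted p was 0.0742 without CT12 mouse 11 and 0.0741 with slide as a block (limma), while the difference stayed at -0.80. This pair of times does not use CT12 mouse 11, so leaving it out changed only the spread and the adjustment. The F test p of this probe was 0.00521 before and 0.275 after adjustment. Its cosine, with an amplitude of 0.42 and a peak at 7.22 h, gave an adjusted p of 0.228 (limma). For the downstream probe the cosine had an amplitude of 0.10 and a peak at 19.2 h. The difference between the probes was not tested, and this pair of probes was singled out after its values were seen. With the mean of both probes standing for Btrc, CT18 minus CT6 was -0.31 (adjusted p = 0.578, limma), which turns the direction of the value for the gene.

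Fbxw11, the beta-TrCP paralog, had concordant probes. A_51_P141860, which stands for the gene, had 4.56, 4.70 and 4.69 at CT0, 4.50, 4.59 and 4.49 at CT6, 4.41, 5.04 and 4.69 at CT12, and 4.77, 4.87 and 4.91 at CT18. The CT18 mice lay above the CT6 and CT0 mice, while the CT12 mice held both the lowest and the highest library. The share of all genes without overlap was 22.8% for CT18 against CT6 and was not counted for CT18 against CT0. CT18 minus CT6 was 0.33 (95% interval 0.01 to 0.64, adjusted p = 0.567, limma) and was positive within each slide (0.29, 0.42 and 0.27). A_55_P1961894 gave 0.36 (0.06 to 0.67, adjusted p = 0.479, limma), with 0.31, 0.46 and 0.32 within the slides. The 2 probes lie 111 bases apart on the same transcript record, so they are not independent readings.

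CT12 mouse 11 was the highest library for Fbxw11, at 5.04 against a mean of 4.55 in the other CT12 mice. Without it the F test p was 0.0265 before and 0.319 after adjustment (limma). Without it the cosine had an amplitude of 0.17 with a peak at 18.9 h (adjusted p = 0.268, limma), against 17.3 h with all libraries (adjusted p = 0.578). For A_55_P1961894, leaving it out cannot move CT18 minus CT6, which does not use it. Only the spread and the adjustment changed (adjusted p = 0.0721, limma). The F test p of this probe was then 0.00471 before and 0.178 after adjustment (limma). Its cosine test p was 0.00412 before and 0.157 after adjustment (limma).

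**Figure D2:**
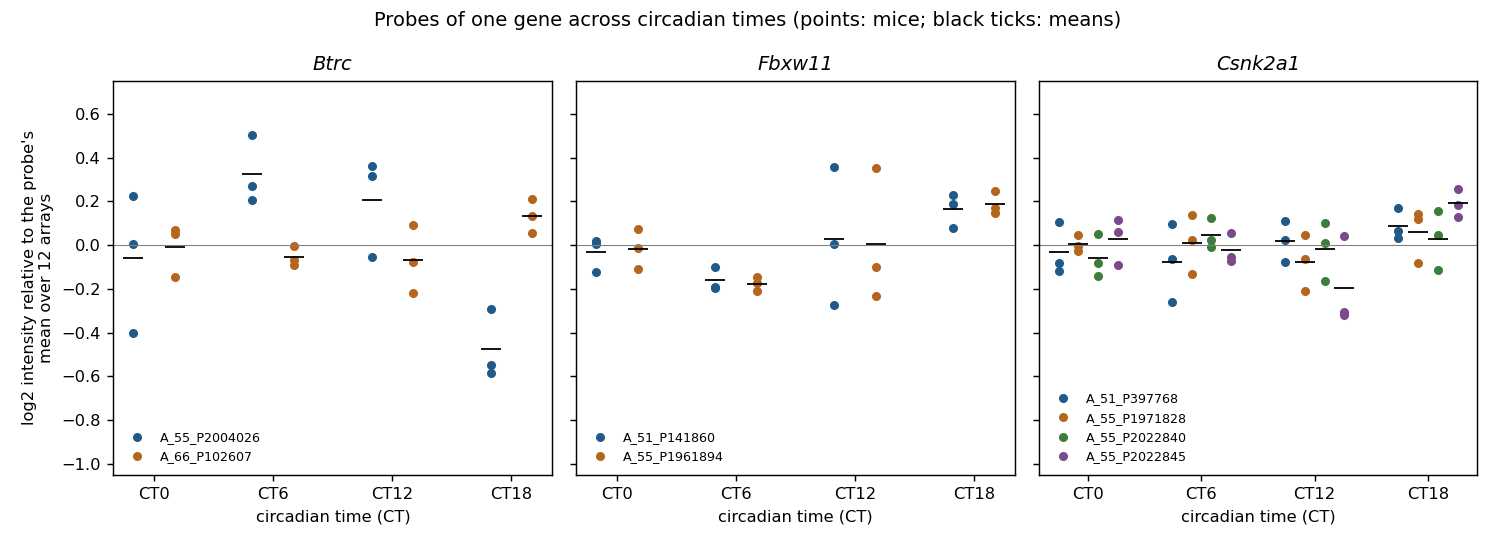
Log2 intensity relative to each probe's own mean over 12 arrays (vertical axis) by circadian time (horizontal axis) for the probes of Btrc, Fbxw11 and Csnk2a1, 1 point per mouse with the mean of 3 mice as a black tick. The Btrc probes separate at CT18, where A_55_P2004026 is below and A_66_P102607 above its own mean, while the Fbxw11 probes move together.

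Between opposite circadian times the members were compared as pairs. For CT12 against CT0, 0 of 7 members passed, against 0.0581% of all genes, and 0 of 7 had groups that did not overlap, against 12.9% of all genes. The member differences ran from -0.09 to 0.28, with a median of 0.04, against a median of -0.02 over all genes. That member median rested on single libraries: it was -0.02 without CT12 mouse 11, 0.11 without CT12 mouse 10, and 0.0016 without CT0 mouse 3. For CT18 against CT6, 0 of 7 passed, against 0.133% of all genes, and 1 (Fbxw11) had an unadjusted p under 0.05, against 2004 of 24089. Without CT12 mouse 11, which is in neither group but enters the estimate of the spread, 0 of 7 passed, against 300 of 24089 genes. Groups did not overlap for 2 of 7, Btrc and Fbxw11, both higher at CT18, against 22.8% of all genes, so that share is near the background. The differences ran from -0.14 to 0.33, with a median of -0.02 both for the members and for all genes, and the member median was 0.02 without CT6 mouse 6 and 0.05 without CT18 mouse 14. Among single probes, 0 of 18 passed for either pair, where 0.0265% of all probes passed for CT12 against CT0.

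The remaining pairs gave the same count. For CT18 against CT12, the pair with the most calls, 0 of 7 members passed against 0.403% of all genes, and Csnk1d alone had groups that did not overlap, against 18.3% of all genes. Unadjusted p values under 0.05 were reached there by 2 of 7, Csnk1d (higher at CT18) and Fbxl21 (lower at CT18), against 3994 of 24089. For CT12 against CT6, 0 of 7 passed, against 0.0208%, and for CT18 against CT0 0 of 7, against 0% (0 of 24089 by limma, 956 at an unadjusted p under 0.05). The comparisons CT12 against CT0 and CT12 against CT6 share the CT12 mice, and others share mice likewise, so agreement among them is not counted as a result.

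**Figure D3:**
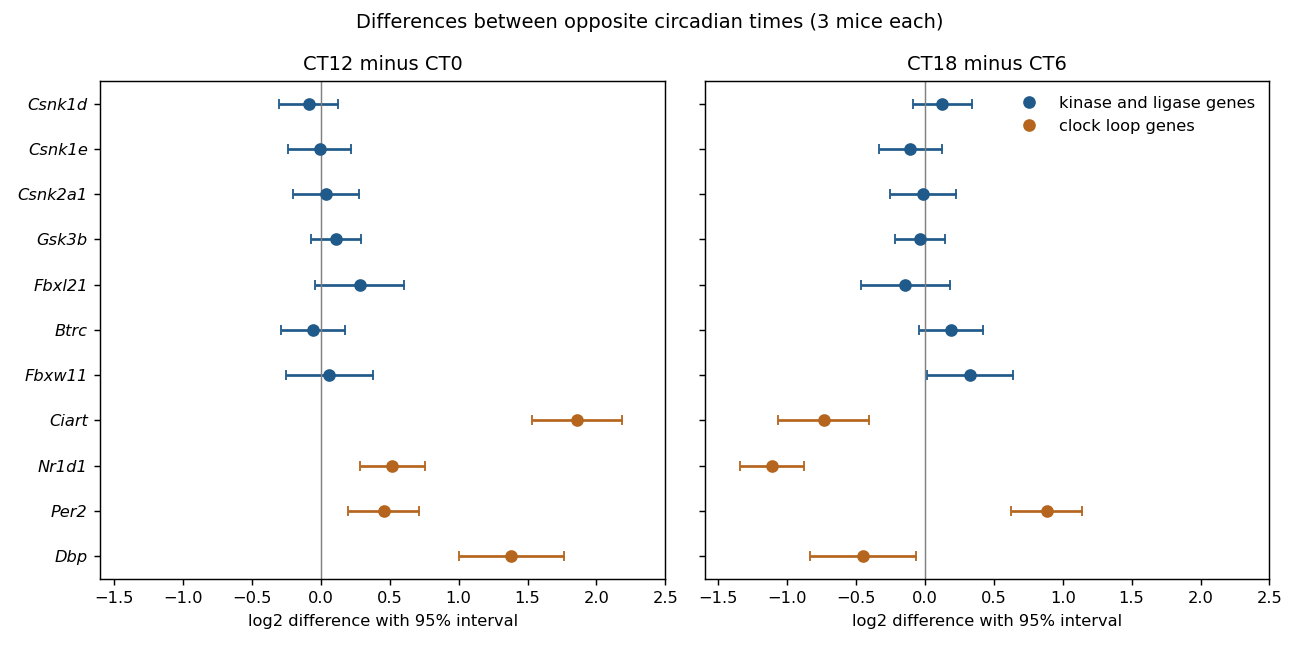
Log2 difference with its 95% interval (horizontal axis) between opposite circadian times for the 7 kinase and ligase genes and, below them, the 4 genes of the transcription loop that the F test called. The kinase and ligase differences lie between -0.14 and 0.33, whereas Ciart reaches 1.86 for CT12 minus CT0 and Nr1d1 -1.11 for CT18 minus CT6.

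How large a difference these arrays leave possible can be read from the intervals. Over the 6 pairs of times, the bound farthest from 0 of the 95% intervals, which are not adjusted for the number of pairs, was 1.27-fold for Csnk2a1, 1.29-fold for Gsk3b, 1.32-fold for Csnk1e, 1.35-fold for Btrc, 1.37-fold for Csnk1d, 1.56-fold for Fbxw11 and 1.67-fold for Fbxl21. Each lay under 1 log2 unit, as did that of 69.8% of all genes. Of the 42 member intervals 4 did not include 0 (9.12% over all genes): Csnk1d and Fbxl21 for CT18 minus CT12, Gsk3b for CT6 minus CT0 and Fbxw11 for CT18 minus CT6. Without CT12 mouse 11 none of these included 0 either. Nor did CT18 minus CT12 for Btrc, at 0.28 (0.06 to 0.50), or for Fbxw11, at 0.30 (0.07 to 0.53), with adjusted p of 0.231 and 0.233 (limma). The farthest bound for Btrc was then 0.50 log2 units, against 0.44 with all libraries. It also grew for Csnk1d (0.47 against 0.45) and Csnk2a1 (0.37 against 0.34), and it shrank for the other members. The fold bounds above are those with all libraries and hold for the probe that stands for each gene. The wider intervals of A_55_P2004026 for Btrc, to -1.20, and of A_52_P41239 for Fbxl21, to -1.75 for CT18 minus CT12, reach past 1 log2 unit, as does A_66_P117366 for Csnk1e, at -1.03 for CT12 minus CT0.

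The range of the 4 time means had a median of 0.20 over the 7 members, with extremes of 0.10 and 0.42, against a median of 0.30 over all genes. The residual SD had a median of 0.11, against 0.22 over all genes, so the members were also measured with less spread between mice than the median gene. By contrast, the 12 genes of the transcription loop had a median range of 0.90. The F test called 4 of them, as did the cosine test: Ciart, Nr1d1, Per2 and Dbp. Their ranges were 1.86, 1.11, 0.88 and 1.38 (F test, adjusted p = 0.0095, 0.0191, 0.0463 and 0.0484, limma). Per2, which encodes a substrate of the kinases, had means of -1.29 ± 0.09 at CT0, -1.46 ± 0.06 at CT6, -0.83 ± 0.22 at CT12 and -0.58 ± 0.08 at CT18 (SD, n = 3 each). Within the loop, Cry2 had a range of 0.14 and Clock of 0.31 (F test, adjusted p = 0.849 and 0.281, limma), both inside the range of the kinases and ligases. Before adjustment the F test p of Clock was 0.00684 (limma), its residual SD was 0.04, and 3 of its 6 intervals did not include 0. Of the 12 loop genes, 10 had an unadjusted F test p under 0.05, against 0 of 7 members and 10.6% of all genes.

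**Figure D4:**
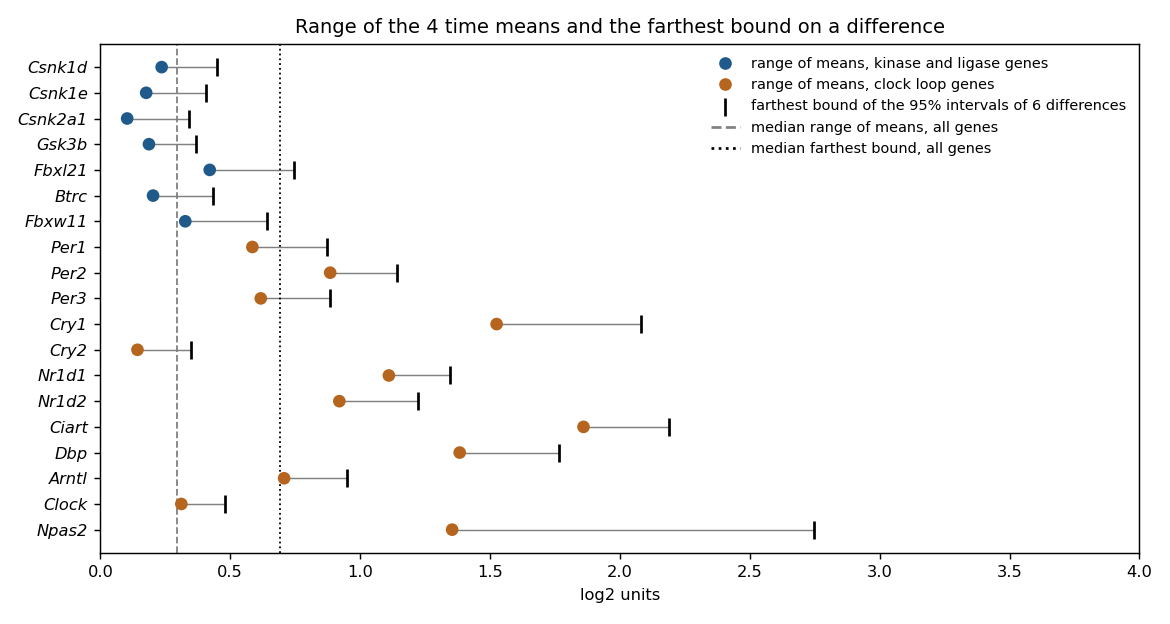
Range of the 4 time means (points) and the farthest bound of the 95% intervals of the 6 differences between times (black ticks), both in log2 units on the horizontal axis, for the 7 kinase and ligase genes and the 12 genes of the transcription loop. The farthest bounds of the 7 genes lie between 0.34 and 0.74, those of the loop between 0.35 (Cry2) and 2.75 (Npas2).

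The lowest libraries of the members are given as a description, because the share of all genes that are lowest in them is not given here. Csnk1d, Csnk2a1, Btrc and Fbxw11 were lowest in CT12 mouse 10, and Csnk1e and Gsk3b in CT0 mouse 1, so that 6 of 7 were lowest in these libraries. Both lay on the third slide and had the highest choroid plexus medians, and CT0 mouse 1 had a local background of 100, against 25 to 37 on the other arrays. For the same 6 genes the third slide had the lowest mean of the 3 slides, for example -0.13 for Fbxw11 and -0.03 for Gsk3b relative to the gene's mean, and the first slide had the highest, for example 0.12 and 0.05. Fbxl21 was highest in CT12 mouse 10. These libraries and slides were singled out from the same values, so their recurrence is not read as a trait of the members. The part of tissue, slide or background in these values was not tested, and with slide as a block 0 of 7 members were called.

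Other genes that act on clock proteins after translation gave similar counts. Of 18 further kinases of the clock, 18 were measured and 0 called in either direction. Csnk1g1 and Csnk1a1, both casein kinases 1, were each lowest at CT12 and highest at CT18, with ranges of 0.31 and 0.34 (adjusted p = 0.489 and 0.51, limma), and CT12 mouse 11 was the lowest library of each. Without it the ranges were 0.22 and 0.26, and Csnk1a1 was lowest at CT6.

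Of 15 further ubiquitin ligase genes 15 were measured and 0 called, and their median range was 0.12. Fbxw7, an F-box protein, had means of 2.93 ± 0.35 at CT12 and 3.39 ± 0.01 at CT6 (SD, n = 3 each; F test, adjusted p = 0.544, limma). Its lowest CT12 value, 2.58, was that of CT12 mouse 11, and without it the CT12 mean was 3.11 and CT12 minus CT6 was -0.28, against -0.45 with all libraries. Mdm2, a RING ligase, ranged over 0.17 (adjusted p = 0.574). Dtl, a substrate receptor of CUL4 ligases, ranged over 2.82, but its CT12 values were -3.12, -7.56 and -1.88, and the lowest belongs to CT12 mouse 11 (adjusted p = 0.626), without which the range was 1.16.

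Of 11 phosphatase and deubiquitinase genes 11 were measured and 0 called. Usp2, a deubiquitinase known as a clock output, came closest, with 2.84, 3.19 and 2.78 at CT12 against 2.47, 2.58 and 2.46 at CT0, and 2.44, 2.54 and 2.21 at CT18 against 2.72, 2.87 and 2.73 at CT6. The groups did not overlap in either pair. Its F test p was 0.00656 before and 0.281 after adjustment (limma), and CT12 minus CT0 was 0.43 ± 0.13 (SE, n = 3 per time). Usp9x, another deubiquitinase, ranged over 0.23 (adjusted p = 0.581), and Ppp1cb, a catalytic subunit of protein phosphatase 1, over 0.20 (adjusted p = 0.682).

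The genes whose values followed a member most closely were found by Pearson's r over the 12 arrays, which share mice, slides and scaling; r is given as a description of the best of all genes. Csnk1d was closest to Pdpk1 (0.98) and Zbtb44 (0.97), Csnk1e to Ssx2ip (0.98) and Napb (0.96), and Gsk3b to Srrm4 (0.87) and Cltc (0.84). Csnk2a1 was closest to Gtpbp1 (0.94) and a transcript without a symbol (0.94). Among the F-box genes, Fbxw11 was closest to Med7 (0.98) and Usp15 (0.97), Btrc to Zfp563 (0.95) and a transcript without a symbol (0.94), and Fbxl21 to an unnamed transcript (0.91) and C530043K16Rik (0.90). Over the 11 arrays without CT12 mouse 11, the closest genes were Rprd1a and Pdpk1 (0.99 and 0.98) for Csnk1d, Ssx2ip and Napb (both 0.98) for Csnk1e, and Clnk and Naa60 (0.93 and 0.88) for Gsk3b. They were Cstf1 and Pgs1 (both 0.97) for Csnk2a1, Stk4 and Usp15 (both 0.98) for Fbxw11, Gm7969 and an unnamed transcript (0.96 and 0.95) for Btrc, and Grin3b and A330049N07Rik (0.92 and 0.91) for Fbxl21.

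Short promoter windows close to gene starts from RefSeq (GRCm38.p6) were searched on both strands for 4 clock motifs. Motifs farther from a start were not searched for. The E-box CACGTG occurred in 7.15% of 32851 windows, the D-box TTATGNAA in 3.38%, the ROR element AGGTCA in 16.3% and the cyclic AMP element TGACGTCA in 1.79%. Windows were given for 5 members, and 0 of 5 members held any of these letters. There were 8 windows in all, of which 4 belong to Csnk1e and lie close together, in part overlapping, so they are not separate promoters. Among 11 genes of the transcription loop with a window, 3 held the E-box (Ciart, Cry1 and Per1), 2 the D-box, 4 the ROR element and 0 the cyclic AMP element. The percentages count windows, whereas the counts for the loop are of genes, so they are not on the same footing. A match is a description of the letters in the window, not of a bound site.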

How the data were processed

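Total RNA was labelled with Cy3 by a one-colour low-input protocol, per the labels' protocols. Agilent Feature Extraction 10.7.3.1 read the spots, per the file headers. Its deposited processed signal is an intensity, corrected for background and detrended within the array but not scaled between arrays. The deposited spot flags (other, 0 or 1) and local background intensity were also used. The deposited value table holds log2 values with 1 distribution in all columns (median 5.36); each column correlated best with its own array (r from 0.994), and the steps behind it are not given in the sources used here.

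From the log2 processed signal the array's 75th percentile, taken over all non-control probes, was subtracted, after outlier spots were dropped and repeat spots averaged. Of 55681 probes, 146 without a value on every array were dropped, and 33965 passed the filter: well above background on all 3 arrays of at least 1 time. Each of the 24089 genes was read by its brightest probe on average. Symbols came from RefSeq (GRCm38.p6) for 26576 probes by accession, 2607 by symbol and 492 by synonym; 26006 kept the array's name. No spot was saturated (0 on each array), and the quality result of CT0 mouse 1 was to be evaluated per the file headers.

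In limma 3.58.1 (R 4.3.3), all 12 arrays entered a fit with a mean for each time, tested by the moderated F test and for the 6 pairs, and a fit of a 24-hour cosine and sine. P-values were adjusted by Benjamini-Hochberg over all genes, and over all kept probes in the fits of single probes, with calls under 0.05. The procedure was tested on simulated data. P-values measure the spread between these mice. The 7 members, the lists, the tests and the alternatives were chosen with earlier results of these data known. The rule for named genes took all members and their probes, from each of 4 lists the called genes and the 3 with the smallest F test p, and the 2 genes most like each member with and without CT12 mouse 11; 1 gene that the rule names is not reported here. Alternatives covered the scaling (quantile, median), the background (normexp, offset 50), the deposited table, the filter, the mean of a gene's probes, the variance model, slide as a block, the 6 arrays compared, and each mouse left out in turn.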

Additional observations from a re-analysis of the deposited data

How the results depend on the processing

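In limma, 0 of 7 members were called by the F test or the cosine test in 21 alternative settings, or for CT12 against CT0 or CT18 against CT6 in 22. The other 4 pairs of times were run in 3 alternatives (without CT12 mouse 11, slide as a block, the deposited table), with 0 of 7 called and a lowest adjusted p of 0.137 (limma, Csnk1d, CT18 against CT12, slide as a block). In the 14 settings that were run on single probes 0 of 18 member probes were called by the F test or the cosine test; over the tests run in 21 or 22 settings the lowest adjusted p of a member gene was 0.115 (limma, Fbxl21, CT12 against CT0, without CT12 mouse 12). Member values under an alternative, 602 in all, were adjusted p values of the F and cosine tests and differences of the opposite times. Adjusted p values were compared with the threshold only, and differences also with the replicate spread. Many differences could not move, for example where the mouse left out was not in the pair or only the variance model changed. The counts are therefore no measure of stability. By this rule 585 stayed the same, and 17 differences moved by more than the replicate spread without passing. Among these, CT12 minus CT0 for Fbxl21 was 0.48 with quantile normalization and in the deposited table and 0.50 with median centring, and the mean of both probes turned CT18 minus CT6 for Btrc to -0.31. Median centring moved the median of all genes for CT12 minus CT0 to 0.19, against -0.02, and that of the members to 0.25, so changes under it are read against that shift.

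Counts over all genes depended on the settings. The F test called 40 genes, 8 with median centring, 2 with no filter and 16 with slide as a block; leaving out 1 mouse gave 0 to 117, with 0 for limma without CT6 mouse 5, 6 or 7 or CT18 mouse 14 (1804 to 2056 at an unadjusted p under 0.05) and 117 without CT12 mouse 12. The cosine test called 17, 6 with quantile normalization or the deposited table, 3 with median centring, 11 with normexp, 5 with no filter and 27 with a trended and robust variance model; leaving out 1 mouse gave 0 to 68, with 0 for limma without CT18 mouse 14 (1788 at an unadjusted p under 0.05) and 68 without CT12 mouse 11. For CT12 against CT0 the count was 14, 7 with quantile normalization or the deposited table, 5 with median centring, 1 with no filter and 0 in a limma fit of only the 6 arrays compared (943 at an unadjusted p under 0.05); leaving out 1 mouse gave 1 to 78 (without CT12 mouse 12). For CT18 against CT6 it was 32, 53 with quantile normalization or the deposited table, 3 with median centring, 50 with normexp, 11 with no filter, 65 with probes well above background on all 12 arrays, 68 with the trended and robust model and 59 in the fit of 6 arrays; leaving out 1 mouse gave 1 to 300 (without CT12 mouse 11). Over probes the F test called 24, and 4 with slide as a block (0 to 127 leaving out 1 mouse, with 2528 or more at an unadjusted p under 0.05 where limma called 0), and the cosine test 15, and 9 in the deposited table (0 to 67, with 2432 or more where it called 0). The cause of these changes was not tested. The labels give no mouse number that groups share, so mice were not paired by number. Arrays were paired by slide, which holds 1 array per time: slide as a block changed no call of a member. Precision is limited by 3 mice per time, by a library that stands apart, and for Fbxl21 by dim probes.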
